A study of Homo sapiens with 12 samples.

Results

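The genes described here are the collagens, the laminins and a set of other matrix genes in tumours treated with zotatifin, an inhibitor of the RNA helicase eIF4A. They were chosen by name: every symbol of the form COL, a number, A and a number, every laminin chain symbol, and FBN1, FBN2, FN1, SPARC, LUM, DCN, BGN, POSTN, THBS1, THBS2 and LRP1. This gave 66 genes of 19027 in the tables, of which 43 were collagens and 12 were laminins. The naming rule uses no measured value, but the genes and the rule were chosen with earlier results of these data known. Both groups were subcutaneous tumours of 22Rv1, a human prostate carcinoma line that expresses the androgen receptor and its splice variants, carried by male immunodeficient NSG mice that were 6 to 8 weeks old when injected. The zotatifin group had 0.3 mg/kg of the drug in 5% dextrose by intraperitoneal injection, and the vehicle group had 5% dextrose alone, given once tumours measured 70 to 100 mm3. Tumours were harvested 6 h later, and ribosome footprints (Ribo-seq) and total RNA (RNA-seq) were sequenced from the lysates, with 3 libraries per group and assay and 12 in all. NSG hosts lack lymphocytes but keep their own fibroblasts, vessels and myeloid cells, so a tumour holds human cancer cells and mouse stroma.

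Fibrillar collagens are made as procollagen chains that fold into triple helices in the endoplasmic reticulum and assemble into cable-like fibres outside the cell, and in solid tumours fibroblasts are their main source. Basement membranes are sheets built of collagen IV and laminins, and epithelial cells, prostate carcinoma cells included, make several of those chains themselves. Because eIF4A unwinds structured mRNA leaders ahead of the scanning ribosome, the question for each gene was whether its ribosome footprints, its RNA or the ratio of footprints to RNA differed between zotatifin and vehicle tumours.

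Upstream sequence is shown for 3 genes that the results turn on and for a start region shared by a pair of genes. SPARC and COL12A1 were lower in both assays, LAMA5 had lower RNA and a higher ratio of footprints to RNA, and COL4A1 and COL4A2 are read outwards from a common gap of 126 bases. The sequences are from RefSeq (GRCh38.p14), 5′ to 3′ on the strand of the gene, and end at the base before the annotated start. Capitals mark matches on either strand, overlaps included, of the GC box (letters GGGCGG), of the CCAAT box, of the TATA box (searched as TATAAA) and of a repeat unit spelled GGAGGA. In the same order they lie at chr5:151686916-151687165 (minus strand), chr6:75206054-75206303 (minus strand), chr20:62367313-62367562 (minus strand) and chr13:110307158-110307283 (plus strand).

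SPARC: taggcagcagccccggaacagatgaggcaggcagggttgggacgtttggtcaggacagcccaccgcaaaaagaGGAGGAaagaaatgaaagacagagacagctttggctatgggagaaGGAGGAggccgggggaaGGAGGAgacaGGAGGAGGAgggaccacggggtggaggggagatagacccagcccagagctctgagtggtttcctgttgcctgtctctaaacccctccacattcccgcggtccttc
COL12A1: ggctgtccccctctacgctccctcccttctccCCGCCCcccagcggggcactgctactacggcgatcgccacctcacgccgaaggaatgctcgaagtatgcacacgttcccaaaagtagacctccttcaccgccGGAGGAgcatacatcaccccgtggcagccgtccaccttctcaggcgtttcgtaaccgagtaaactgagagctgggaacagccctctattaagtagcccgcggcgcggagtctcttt
LAMA5: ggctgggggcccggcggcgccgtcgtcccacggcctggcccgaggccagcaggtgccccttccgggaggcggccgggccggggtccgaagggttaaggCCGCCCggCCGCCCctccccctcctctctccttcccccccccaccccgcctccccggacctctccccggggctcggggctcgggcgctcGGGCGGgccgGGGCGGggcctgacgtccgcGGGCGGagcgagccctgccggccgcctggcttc
COL4A1 and COL4A2: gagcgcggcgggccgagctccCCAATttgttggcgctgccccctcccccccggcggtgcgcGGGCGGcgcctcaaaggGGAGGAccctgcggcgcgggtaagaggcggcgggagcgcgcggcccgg

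SPARC held 5 matches of the repeat unit and no other searched motif, LAMA5 held 5 GC boxes and no other, and COL12A1 held 1 GC box and 1 repeat unit. The gap between COL4A1 and COL4A2 held 1 GC box, 1 CCAAT box and 1 repeat unit. Windows of 250 bases were held for 50 of the 66 genes. A GC box was present in 29 of these, against 42.3% of all 27305 RefSeq windows, the CCAAT box in 13 (33.0% of all), the TATA box in 7 (11.1%) and the repeat unit in 24 (31.2%). The repeat unit was chosen after the SPARC sequence had been seen. These matches describe the letters in the windows only. COL4A4 with COL4A3 (135 bases apart) and COL4A6 with COL4A5 (379 bases) have the same outward arrangement. Of the other genes on which the results turn, COL1A1 lies at chr17:50184101-50201631, COL1A2 at chr7:94394895-94431227, COL3A1 at chr2:188974373-189012746, FBN1 at chr15:48408313-48645709 and LRP1 at chr12:57128483-57213361 in the same build.

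Total counts per library were 6594884 to 8153674 in zotatifin RNA and 5761921 to 7121802 in vehicle RNA, and 838135 to 1540867 in zotatifin footprints against 1592316 to 2013968 in vehicle footprints, so the zotatifin footprint libraries were the shallowest. All 11 prostate tumour cell markers were tested in both assays, and their summed footprint level was 5599 to 6385 CPM with zotatifin and 4262 to 5583 CPM with vehicle. In footprints 3 of them, FOXA1 and KRT18 included, were called higher and 0 lower (1 lower at an unadjusted p under 0.05, 0 lower by DESeq2), with a median log2 change of 0.10. In RNA 0 were called by edgeR (2 higher and 1 lower at an unadjusted p under 0.05, 1 higher by DESeq2), with a median of 0.02. Levels are given as CPM, counts scaled to the size of each library with TMM factors. Markers of host-type cells were also read: the summed level of 15 fibroblast and mural cell markers was 209 to 391 CPM in zotatifin footprints against 461 to 756 CPM in vehicle footprints, and 108 to 166 CPM in zotatifin RNA against 192 to 364 CPM in vehicle RNA. Of these, 1 of 6 tested was called lower in footprints (MMP2), with TCF21 at 0 in every footprint library. In RNA 0 of 9 were called by edgeR (1 at an unadjusted p under 0.05, 0 by DESeq2). Most of the footprint sum came from VIM (169 ± 49.9 CPM with zotatifin, 290 ± 80.4 CPM with vehicle, SD) and ACTA2 (104 ± 33.1 and 218 ± 69.0 CPM). Most of the RNA sum came from VIM (93.0 ± 18.1 and 215 ± 93.2 CPM). Neither gene was called in either assay (edgeR adjusted p = 0.185 or more). Myeloid markers summed to 38.2 to 67.4 CPM in zotatifin footprints and 77.7 to 377 CPM in vehicle footprints, with 2 of 4 tested called lower (PTPRC and CSF1R) and CD14 and FCGR3A at 0; in RNA they summed to 11.0 to 21.6 CPM with zotatifin and 16.4 to 58.0 CPM with vehicle, with CSF1R called lower of 3 tested and TYROBP at 0. LYZ and AIF1, the most abundant myeloid markers in footprints, were not called there (edgeR adjusted p = 0.226 and 0.215). LYZ footprints, the largest part of the myeloid sum, were 34.2 ± 12.7 CPM with zotatifin and 140 ± 87.6 CPM with vehicle (SD). AIF1 had 9.19 ± 2.47 CPM with zotatifin and 34.0 ± 20.6 CPM with vehicle. Red blood cell markers had 2 of 6 tested called lower in footprints (HBE1 and HBG1). HBA2 and HBB, the most abundant of them in footprints, had log2 changes there of 0.15 ± 0.18 and -1.57 ± 0.73 and were not called. In RNA HBB was called lower, the 1 of 5 red blood cell markers tested (log2 change -1.51 ± 0.39, edgeR adjusted p = 0.0496). DESeq2 also called 1 of 5 lower in RNA. The footprint sum of the red blood cell markers was 142 to 179 CPM with zotatifin and 136 to 362 CPM with vehicle. Their RNA sum was 18.9 to 26.3 CPM with zotatifin and 21.6 to 42.0 CPM with vehicle. Of 5 muscle and adipocyte markers 0 were called in footprints by edgeR (1 at an unadjusted p under 0.05, 0 by DESeq2). These summed to 185 to 279 CPM with zotatifin and 229 to 534 CPM with vehicle. The red blood cell sum and the muscle and adipocyte sum both overlapped between the groups. Over all genes tested, 3.92% were called lower and 3.22% higher in footprints, and 0.907% lower and 0.808% higher in RNA. The called host-type markers MMP2, PTPRC, CSF1R, HBE1 and HBG1 passed the footprint filter through the vehicle libraries alone. CSF1R also passed the RNA filter that way. This by itself leans such counts towards lower values. Of the footprint markers for which it gave an adjusted p, DESeq2 called 0 of 2 fibroblast and mural, 1 of 2 myeloid and 0 of 3 red blood cell markers. Endothelial markers summed to 1.29 to 3.68 CPM in zotatifin footprints and 3.89 to 5.08 CPM in vehicle footprints. These sums came from 2 to 4 counts per zotatifin library and 7 to 9 per vehicle library. In footprints 0 of 10 passed the filter, and EMCN was at 0. In RNA they summed to 5.29 to 9.03 CPM with zotatifin and 5.94 to 19.1 CPM with vehicle, with overlap. Of 2 tested in RNA, 0 were called by edgeR (1 lower at an unadjusted p under 0.05, 0 by DESeq2).

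The matrix genes took a smaller share of the footprints in every zotatifin tumour than in any vehicle tumour. They made up 0.0666%, 0.0619% and 0.0431% of counts in zotatifin footprints, against 0.123%, 0.0912% and 0.155% in vehicle footprints. The exact 95% binomial intervals of the closest libraries, 0.0620% to 0.0714% with zotatifin and 0.0869% to 0.0957% with vehicle, did not meet, and such intervals cover counting error only. In RNA their share was 0.0717%, 0.0602% and 0.0577% with zotatifin and 0.0999%, 0.0880% and 0.119% with vehicle, again without overlap. In bulk tumours, fewer cells of a type and less RNA per cell cannot be told apart.

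Of the 66 genes, 22 passed the filter on low counts in footprints, 36 in RNA and 21 in both, and 29 passed in neither. In footprints 7 of the 22 were called lower with zotatifin and 0 higher (edgeR's quasi-likelihood test, Benjamini-Hochberg adjusted p under 0.05 over 9544 genes), where 3.92% of all genes tested were called lower and 3.22% higher. The 0 higher stayed 0 at an unadjusted p under 0.05 and with DESeq2. In RNA 9 of 36 were called lower and 0 higher, against 0.907% and 0.808% of 13118 genes, and 0 were higher at an unadjusted p under 0.05 or with DESeq2. The median log2 change was -0.92 in footprints and -0.58 in RNA for the genes tested, beside medians over all genes of 0.003 and -0.002. The log2 change was below 0 for 19 of 22 in footprints and for 31 of 36 in RNA, beside 49.7% and 50.3% of all genes. In footprints 7 of the 22 passed the filter through the vehicle libraries alone (BGN, COL4A2, COL5A1, COL5A2, FBN1, LUM and POSTN), as did 5 of the 36 in RNA, so counts and medians over the genes tested lean towards lower values by construction. The calls named 11 genes in all, and 5 of them were called in both assays: COL1A1, COL1A2, COL12A1, FBN1 and SPARC. Fewer calls were made without some libraries: 4 in footprints without zotatifin tumour 2, zotatifin tumour 3 or vehicle tumour 1, and 3 and 4 in RNA without vehicle tumour 1 and vehicle tumour 3. There were 13 in footprints without vehicle tumour 2.

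The chains of the main fibrils, collagen I and collagen III, had lower footprint levels in every zotatifin tumour than in any vehicle tumour. COL1A1, the alpha 1 chain of collagen I, had 77.2, 65.0 and 40.1 CPM in zotatifin footprints, against 216, 140 and 258 CPM in vehicle footprints. Its log2 change was -1.79 ± 0.33 (SE, n = 3 tumours per group, edgeR adjusted p = 0.030). The lowest vehicle tumour, number 2, stood well above the highest zotatifin tumour. COL1A2, the partner chain of the same triple helix, had 59.0, 47.8 and 35.6 CPM with zotatifin and 160, 84.4 and 145 CPM with vehicle, a log2 change of -1.48 ± 0.28 (adjusted p = 0.0145). COL3A1, the chain of collagen III, had 59.0, 58.9 and 31.0 CPM in zotatifin tumours, against 198, 127 and 220 CPM in vehicle tumours, a log2 change of -1.92 ± 0.29 (adjusted p = 0.0087). In all of these genes zotatifin tumour 3 was the lowest library and vehicle tumour 2 the lowest of its group, with no overlap. COL1A1 was not called without zotatifin tumour 2 or vehicle tumour 1 (adjusted p up to 0.179), COL1A2 without zotatifin tumour 2 or 3 (up to 0.187) and COL3A1 without zotatifin tumour 2 (0.109).

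Of the fibrillar collagens, 3 of 5 tested were called lower in footprints and 4 of 7 in RNA. COL1A1 RNA was 64.7, 45.0 and 31.0 CPM with zotatifin and 151, 98.2 and 144 CPM with vehicle (log2 change -1.48 ± 0.26, adjusted p = 0.034), and COL1A2 RNA was 15.7, 13.1 and 7.41 CPM with zotatifin against 42.0, 35.0 and 55.9 CPM with vehicle (log2 change -1.88 ± 0.22, adjusted p = 1.3e-04). Neither gene overlapped between the groups. The COL1A1 call was lost without zotatifin tumour 2, vehicle tumour 1 or vehicle tumour 3 (adjusted p up to 0.268), and that of COL1A2 was kept whichever tumour was left out. COL3A1 RNA did not pass the test although its libraries did not overlap: 25.6, 28.0 and 11.8 CPM with zotatifin, against 65.7, 39.8 and 86.2 CPM with vehicle (log2 change -1.56 ± 0.42, adjusted p = 0.15). It passed without vehicle tumour 2 (adjusted p = 0.0016).

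Collagen V co-assembles with collagen I and sets fibril diameter. COL5A1 RNA was 3.02, 2.18 and 2.51 CPM in zotatifin tumours and 9.62, 8.84 and 8.34 CPM in vehicle tumours, with little spread within either group (log2 change -1.78 ± 0.31, adjusted p = 0.0062, and 0.068 without vehicle tumour 1). COL5A2 RNA was 11.4, 8.72 and 10.2 CPM with zotatifin and 13.1, 20.0 and 25.3 CPM with vehicle (log2 change -0.95 ± 0.23, adjusted p = 0.042). Groups did not overlap for either gene, but the COL5A2 call was lost whichever of the 6 tumours was left out (adjusted p up to 0.202). In footprints neither was called: the log2 change was -0.88 ± 0.43 for COL5A1 (adjusted p = 0.220), which had 58 footprints in all 6 libraries together, and -1.10 ± 0.35 for COL5A2 (adjusted p = 0.053, and down to 0.034 without zotatifin tumour 1 or vehicle tumour 2). COL2A1 and COL27A1, of cartilage-type fibrils, were tested in RNA alone, with log2 changes of -0.32 ± 0.46 and -0.19 ± 0.25 and overlapping groups. Over the whole class of 11 fibrillar genes, the summed footprint level was 178 ± 51.3 CPM with zotatifin and 554 ± 151 CPM with vehicle (SD, n = 3 each), a ratio of 0.321, and the summed RNA level was 107 ± 28.1 CPM with zotatifin and 284 ± 59.5 CPM with vehicle, a ratio of 0.377. The fibroblast and mural cell marker sum given above was also lower in every zotatifin tumour than in any vehicle tumour. Most of that sum came from VIM and, in footprints, ACTA2, which were not called. The part of these markers in the collagen results was not tested. Nor was the part of mouse reads, since the tables count reads on human transcripts alone.

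Both chains of collagen I, which combine at a fixed ratio in the protein, were also set against each other. COL1A1 counts over COL1A2 counts, not corrected for length, were 1.31, 1.36 and 1.13 in zotatifin footprints and 1.35, 1.66 and 1.78 in vehicle footprints. In RNA the ratio was 4.12, 3.44 and 4.18 with zotatifin and 3.59, 2.80 and 2.58 with vehicle. The groups overlapped in footprints and in RNA, and no test of this ratio was run.

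**Figure D1:**
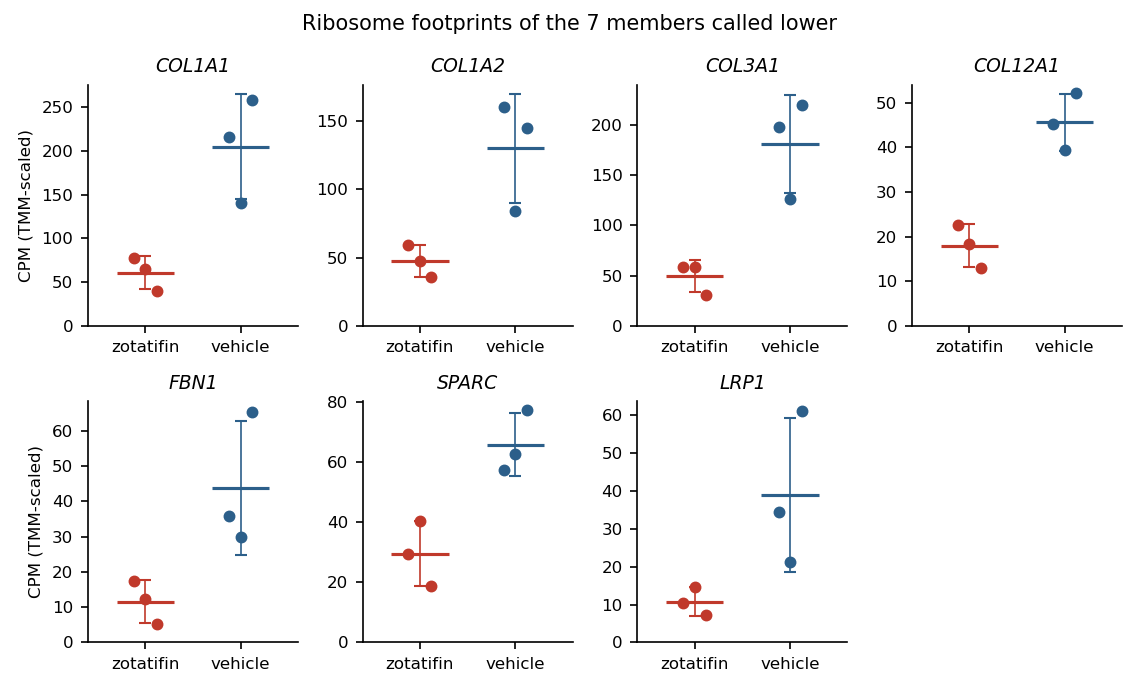
Ribosome footprint level in TMM-scaled CPM (vertical axes, each from 0) of the 7 genes called lower, with 1 point per tumour, a line at the mean and a bar of 1 SD (n = 3). Zotatifin tumours lie below all vehicle tumours in every panel; COL1A1 spans 40.1 to 77.2 CPM with zotatifin and 140 to 258 CPM with vehicle.

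COL12A1 was the gene called among the fibril-associated (FACIT) collagens, which decorate fibril surfaces. It had 22.6, 18.4 and 12.9 CPM in zotatifin footprints, against 45.2, 39.4 and 52.1 CPM in vehicle footprints (log2 change -1.37 ± 0.22, adjusted p = 2.4e-04). Its RNA was 9.92, 6.85 and 6.22 CPM with zotatifin and 15.2, 23.1 and 23.1 CPM with vehicle (log2 change -1.41 ± 0.24, adjusted p = 0.0055). No zotatifin tumour reached the lowest vehicle tumour in either assay, the footprint call was kept whichever tumour was left out, and the RNA call had an adjusted p of 0.052 without vehicle tumour 3. COL14A1, which binds the same fibrils, had overlapping groups, with log2 changes of -0.63 ± 0.29 in footprints (adjusted p = 0.196) and 0.22 ± 0.25 in RNA (adjusted p = 0.687). COL9A3, a chain of the cartilage FACIT collagen IX, had log2 changes of 0.05 ± 0.34 in footprints and 0.17 ± 0.18 in RNA, both smaller than their SE.

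Collagen IV chains, the network of basement membranes, had no call. In footprints 0 of 2 tested basement membrane collagens and in RNA 0 of 6 were called by edgeR, and 0 by DESeq2, while 1 and 2 of them had an unadjusted p under 0.05, all lower. COL4A5, a chain of epithelial and kidney basement membranes, had 31.2, 29.4 and 23.9 CPM in zotatifin footprints and 42.8, 31.6 and 48.9 CPM in vehicle footprints. Its groups did not overlap, though zotatifin tumour 1 and vehicle tumour 2 were nearly equal (log2 change -0.56 ± 0.20, adjusted p = 0.087), and its RNA had a log2 change of -0.20 ± 0.14 (adjusted p = 0.465). COL4A2 had log2 changes of 0.01 ± 0.36 in footprints and -0.46 ± 0.22 in RNA. COL4A1, its divergent neighbour and partner in the same triple helix, was tested in RNA alone, with 1.69, 1.40 and 0.529 CPM with zotatifin against 1.92, 3.27 and 3.62 CPM with vehicle (log2 change -1.28 ± 0.51, adjusted p = 0.18).

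The summed level of the 9 basement membrane collagens was 42.7 ± 5.84 CPM in zotatifin footprints and 59.3 ± 8.74 CPM in vehicle footprints (ratio 0.720), and 66.7 ± 3.02 CPM in zotatifin RNA and 83.6 ± 6.22 CPM in vehicle RNA (ratio 0.797). These ratios were closer to 1 than those of the fibrillar class, and the difference between the classes was not tested.

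Laminins are trimers of an alpha, a beta and a gamma chain, and LAMA5, LAMB1 or LAMB2, and LAMC1 form the main laminins of mature epithelial basement membranes. LAMA5 RNA was 71.3, 55.1 and 65.1 CPM in zotatifin tumours and 104, 102 and 79.3 CPM in vehicle tumours (log2 change -0.57 ± 0.14, adjusted p = 0.0387). Its footprint levels, of opposite sign, were 35.6, 35.6 and 29.8 CPM with zotatifin and 26.5, 21.6 and 27.3 CPM with vehicle, and did not pass the test (log2 change 0.40 ± 0.20, adjusted p = 0.236). The groups did not overlap in either assay. The RNA call was lost whichever of the 6 tumours was left out (adjusted p up to 0.190).

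No other laminin was called: in footprints 0 of 4 passed by edgeR or DESeq2 (2 at an unadjusted p under 0.05, both lower), and in RNA LAMA5 was the 1 of 10. LAMB1 had 46.0, 41.7 and 28.5 CPM in zotatifin footprints and 51.1, 47.7 and 58.5 CPM in vehicle footprints (log2 change -0.47 ± 0.18, adjusted p = 0.116). LAMC1 had 50.3, 41.7 and 34.9 CPM with zotatifin and 55.5, 42.2 and 90.2 CPM with vehicle, with a log2 change of -0.56 ± 0.26 (adjusted p = 0.214). LAMB1 did not overlap between the groups and LAMC1 did, through vehicle tumour 2. RNA of LAMB1, LAMB2 and LAMC1 had log2 changes of -0.28, -0.25 and -0.17 with adjusted p of 0.285 or more. The 12 laminins summed to 152 ± 27.6 CPM with zotatifin and 186 ± 49.3 CPM with vehicle in footprints (ratio 0.815), and to 288 ± 28.8 CPM with zotatifin and 354 ± 16.1 CPM with vehicle in RNA (ratio 0.812). LAMA3 and LAMB3, laminin chains of epithelial basement membranes, were tested in RNA alone, with log2 changes of -0.35 and 0.05 and overlapping groups.

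Among microfibril and matricellular genes, FBN1 and SPARC were called lower in both assays. FBN1, which forms the microfibrils that scaffold elastic fibres, had 17.4, 12.3 and 5.17 CPM in zotatifin footprints, against 35.9, 30.0 and 65.4 CPM in vehicle footprints (log2 change -1.97 ± 0.45, adjusted p = 0.031). Its RNA was 8.95, 6.39 and 6.48 CPM with zotatifin and 19.9, 22.1 and 35.6 CPM with vehicle (log2 change -1.83 ± 0.24, adjusted p = 3.1e-04). Vehicle tumour 3 was the highest library in both assays and the groups did not overlap. Unlike SPARC, FBN1 passed the footprint filter through the vehicle libraries alone, which leans its footprint change towards lower values. The RNA call was kept whichever tumour was left out, while the footprint call was lost without zotatifin tumour 2, zotatifin tumour 3 or vehicle tumour 1 (adjusted p up to 0.219). SPARC, a collagen-binding glycoprotein secreted during tissue remodelling, had 29.5, 40.5 and 18.8 CPM in zotatifin footprints and 57.5, 62.7 and 77.5 CPM in vehicle footprints (log2 change -1.24 ± 0.20, adjusted p = 4.2e-04). SPARC RNA was 11.6, 11.1 and 8.47 CPM with zotatifin and 23.4, 17.4 and 32.8 CPM with vehicle (log2 change -1.25 ± 0.23, adjusted p = 0.0086, and up to 0.086 without vehicle tumour 1 or 3). No SPARC library of the zotatifin group reached the vehicle range, and its footprint call was kept whichever tumour was left out.

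THBS1, thrombospondin 1, an inhibitor of vessel growth that activates latent TGF-beta, was called in RNA alone. Its RNA was 48.2, 42.1 and 48.3 CPM with zotatifin and 81.1, 68.1 and 96.4 CPM with vehicle, without overlap (log2 change -0.83 ± 0.14, adjusted p = 0.0055, and up to 0.068 without vehicle tumour 1 or 3). THBS1 footprints were 55.5, 29.4 and 31.7 CPM with zotatifin and 64.9, 48.3 and 108 CPM with vehicle (log2 change -0.90 ± 0.40, adjusted p = 0.254). Zotatifin tumour 1 exceeded vehicle tumour 2 there, and the gene was called without vehicle tumour 2 (adjusted p = 0.0019). FN1, fibronectin, the adhesive glycoprotein bound by integrins, had log2 changes of -0.95 ± 0.37 in footprints (adjusted p = 0.164) and -0.61 ± 0.24 in RNA (adjusted p = 0.180). POSTN, periostin, another integrin ligand of remodelled matrix, passed the filter in footprints alone (log2 change -1.06 ± 0.38, adjusted p = 0.087), with 89 footprints and 10 RNA counts over all libraries. It passed there through the vehicle libraries alone.

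Small leucine-rich proteoglycans coat collagen fibrils and had no call by edgeR: 0 of 2 tested in each assay, with BGN at an unadjusted p under 0.05 in both and called by DESeq2 in RNA. BGN, biglycan, had 8.68, 15.9 and 5.17 CPM in zotatifin footprints and 12.8, 16.1 and 26.1 CPM in vehicle footprints (log2 change -0.99 ± 0.35, adjusted p = 0.082), and its RNA had a log2 change of -1.14 ± 0.30 (adjusted p = 0.052). LUM, lumican, had a log2 change of -0.61 ± 0.34 in footprints (adjusted p = 0.298) and 0.47 ± 0.53 in RNA (adjusted p = 0.676), with overlap in both assays. DCN, decorin, failed the filter with 2, 1 and 3 footprints in zotatifin tumours and 20, 10 and 11 in vehicle tumours, without overlap, and its RNA counts were 6, 7 and 13 with zotatifin against 4, 3 and 10 with vehicle.

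LRP1, an endocytic receptor that clears proteases and matrix ligands and is abundant in fibroblasts and macrophages, had 10.4, 14.7 and 7.11 CPM in zotatifin footprints, against 34.4, 21.1 and 61.0 CPM in vehicle footprints (log2 change -1.92 ± 0.47, adjusted p = 0.041). Its RNA was 16.3, 15.6 and 9.92 CPM with zotatifin and 37.4, 25.0 and 65.1 CPM with vehicle, a log2 change of -1.62 ± 0.35 that did not pass (adjusted p = 0.061) but passed without vehicle tumour 2 (9.3e-05) or vehicle tumour 3 (0.049). The groups were apart in both assays, and vehicle tumour 3 was far above vehicle tumour 2. The footprint call was lost without vehicle tumour 1 or without any of the zotatifin tumours (adjusted p up to 0.257). The myeloid and the fibroblast and mural marker sums ran in the same order over the vehicle tumours, at 246, 77.7 and 377 CPM for myeloid markers and 566, 461 and 756 CPM for fibroblast and mural markers in footprints of vehicle tumours 1, 2 and 3. In zotatifin tumours 1, 2 and 3 the myeloid sum was 51.2, 67.4 and 38.2 CPM, in the order of LRP1 footprints. The fibroblast and mural sum there was 391, 367 and 209 CPM, in another order. The part of either marker set in the LRP1 result was not tested.

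**Figure D2:**
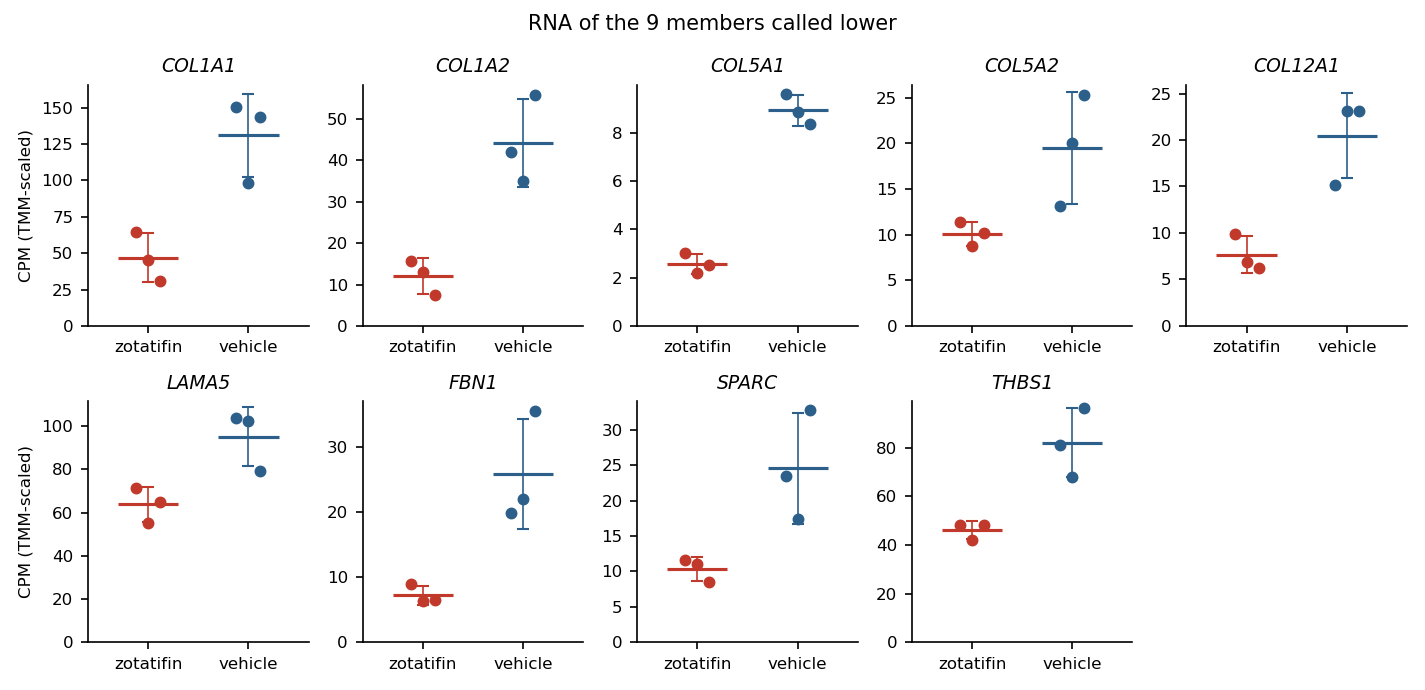
RNA level in TMM-scaled CPM (vertical axes, each from 0) of the 9 genes called lower, with 1 point per tumour, a line at the mean and a bar of 1 SD (n = 3). The groups do not overlap in any panel; COL5A1 spans 2.18 to 3.02 CPM with zotatifin and 8.34 to 9.62 CPM with vehicle.

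Collagen VI, which forms beaded filaments at cell surfaces, was below the filter in footprints. Its 4 genes summed to 10, 13 and 12 footprints in zotatifin tumours and 30, 31 and 39 in vehicle tumours, and to 10.8 ± 4.48 CPM with zotatifin and 18.9 ± 5.23 CPM with vehicle after scaling, with overlap. In RNA COL6A1 and COL6A3 were tested and not called (log2 changes -0.88 ± 0.41 and -0.57 ± 0.50). COL8A1, a network collagen of vessel walls, had 33, 25 and 15 RNA counts with zotatifin and 28, 33 and 39 with vehicle (log2 change -0.67 ± 0.36, adjusted p = 0.327). The 4 membrane-spanning collagens of epithelial type (COL13A1, COL17A1, COL23A1 and COL25A1) had 1, 1 and 0 footprints in zotatifin tumours, 0 in each vehicle tumour, and 5 to 17 RNA counts per gene. Of the 44 genes not tested in footprints, total counts over 6 libraries were 0 to 54, and 7 were at 0. At such counts differences of moderate size were not detectable.

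Groups that did not overlap were counted for all tested genes too. In footprints 12 of 22 matrix genes had all zotatifin tumours below all vehicle tumours and 1 had them above (LAMA5), beside 13.5% and 12.9% of all genes. In RNA 17 of 36 were below and 0 above, beside 10.9% and 12.3%. Among those below, COL5A1, COL5A2 and FBN1 in footprints passed the filter through the vehicle libraries alone. COL4A1 and LAMA4 did so in RNA. These counts therefore lean towards lower values by construction.

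**Figure D3:**
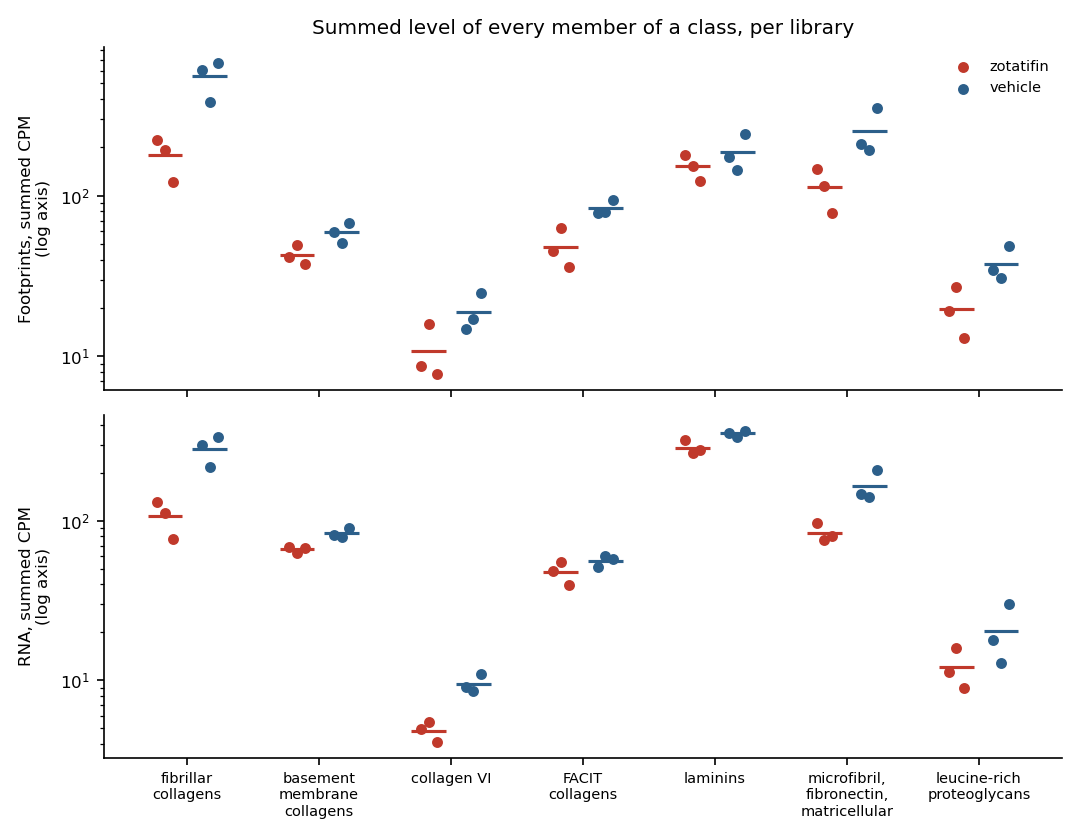
Summed TMM-scaled CPM of every gene of a class (log axes; footprints above, RNA below), with 1 point per tumour and a line at the mean. The fibrillar collagens show the wide gap, at 178 CPM with zotatifin and 554 CPM with vehicle in footprints, and the laminins overlap in footprints, at 152 CPM with zotatifin and 186 CPM with vehicle.

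Whether ribosome loading moved beyond RNA was tested as the change of translational efficiency, footprints relative to RNA, in 1 model of the 12 libraries. Of 21 genes tested, LAMA5 was called higher and 0 were called lower (edgeR adjusted p under 0.05), where 0.476% of 9454 genes were called higher and 1.22% lower. The 0 lower stayed 0 at an unadjusted p under 0.05 and with DESeq2. The median log2 change of efficiency was -0.12 for these genes, beside 0.016 for all genes. With the tumour as a block, 819 genes were called in place of 160, and 1 matrix gene was called, LAMA5.

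LAMA5 had a log2 ratio of footprint to RNA CPM of -1.00, -0.63 and -1.13 in zotatifin tumours, against -1.97, -2.24 and -1.54 in vehicle tumours. Every zotatifin tumour was above every vehicle tumour. The change was 1.00 ± 0.25 on the log2 scale (edgeR adjusted p = 0.030). It was made up of lower RNA and of footprints that were not called. The call was kept without vehicle tumour 3 and lost whichever of the other 5 was left out (adjusted p up to 0.145).

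For the genes lower in both assays, the changes of efficiency were smaller than their SE in the model of 12 libraries. That model did not pair the footprint and RNA libraries of a tumour. They were -0.27 ± 0.52 for COL1A1, 0.43 ± 0.45 for COL1A2, 0.07 ± 0.33 for COL12A1, -0.12 ± 0.53 for FBN1 and 0.05 ± 0.33 for SPARC on the log2 scale. COL3A1 and LRP1 had -0.33 ± 0.64 and -0.27 ± 0.84. The SE leave room for changes of either sign, so equal efficiency was not shown. Without pairing, these SE also hold differences between tumours that both assays share. The log2 ratio per tumour was 1.22 ± 0.17 with zotatifin and 1.54 ± 0.17 with vehicle for COL3A1 (SD, n = 3). It was 0.39 ± 0.14 and 0.62 ± 0.19 for COL1A1, and -0.40 ± 0.29 and -0.15 ± 0.08 for LRP1. FBN1 spread more, at 0.52 ± 0.74 and 0.72 ± 0.24. With the tumour as a block these genes were still not called. The largest changes of efficiency that were not called were -1.02 ± 0.64 for LUM, 0.91 ± 0.53 for COL5A1 and -0.81 ± 0.43 for COL14A1.

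The authors' deposited table of efficiency, which tested 28 of the 66 genes, called 2 higher and 2 lower at an FDR under 0.05, where it called 8.09% and 10.2% of 11446 genes. In the authors' deposited table LAMA5 had a log2 change of 0.97 (FDR 4.5e-06), COL1A2 0.57 (FDR 0.0073), COL14A1 -0.73 (FDR 0.027) and LAMC1 -0.37 (FDR 0.046), after the natural log was turned to log2. The authors' deposited RNA table called 11 of 34 genes lower and 0 higher, where it called 1.30% and 1.17% of 12661 genes. The authors' deposited table included LRP1, with a log2 change of -1.61, and BGN, with -1.14 and an adjusted p of 0.042, which edgeR did not call.

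**Figure D4:**
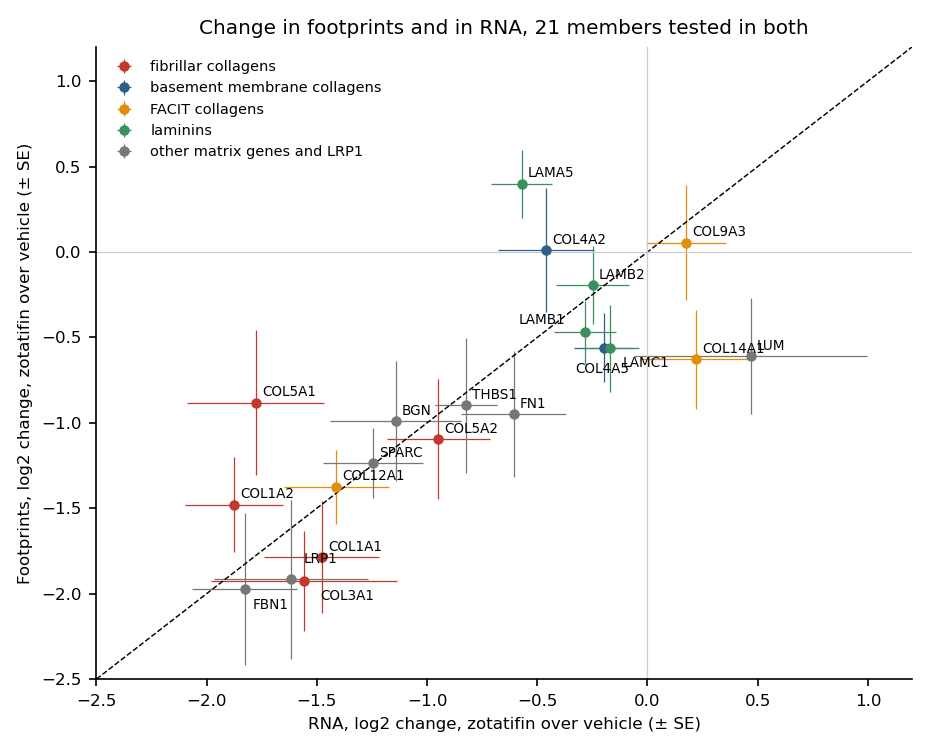
Log2 change (zotatifin over vehicle, ± SE) in footprints against that in RNA for the 21 genes tested in both assays, coloured by class, with a dashed line of equal change. The fibrillar collagens, COL12A1, FBN1, SPARC and LRP1 lie at negative values in both, and LAMA5 lies above the line at -0.57 in RNA and 0.40 in footprints.

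Within a group of tumours, matrix genes differed widely in footprints per RNA. In zotatifin tumours the mean log2 ratio of footprint to RNA CPM was 1.22 for COL3A1, 2.01 for COL1A2, 1.46 for SPARC and 1.22 for COL12A1, and -0.92 for LAMA5, -1.57 for LAMC1 and -1.27 for COL9A3. In vehicle tumours it was 1.54 for COL3A1, 1.52 for COL1A2, 1.46 for SPARC, 1.17 for COL12A1, -1.92 for LAMA5, -1.24 for LAMC1 and -1.17 for COL9A3. The median over 9448 genes was -0.23 with zotatifin and -0.19 with vehicle. LAMA5 stood at percentile 28.6 of all genes with zotatifin and 10.1 with vehicle, whereas COL1A2 stood at 97.0 with zotatifin and 91.9 with vehicle, and SPARC at 92.8 with zotatifin and 91.0 with vehicle. The fibrillar chains COL1A2 and COL3A1 lay in the upper part of the distribution in either group, and LAMC1 and COL9A3 in the lower part. Which region of a transcript was counted is not given in the sources used here, and it bears on such ratios between genes. LUM had the highest vehicle ratio, 3.11, from 2, 12 and 26 RNA counts.

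**Figure D5:**
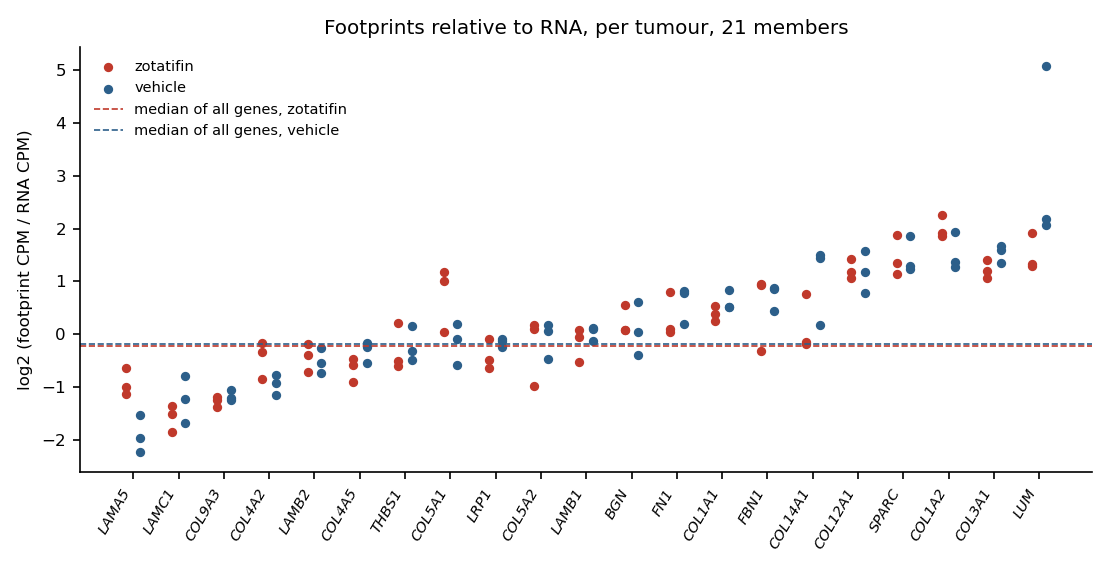
Log2 ratio of footprint CPM to RNA CPM per tumour (vertical axis) for the 21 genes tested in both assays, ordered by the vehicle mean, with dashed lines at the median of all genes in each group. LAMA5 is the gene at the left end, with zotatifin tumours at -1.13 to -0.63 and vehicle tumours at -2.24 to -1.54.

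Of 15 genes for folding and modifying collagen tested in footprints, 2 were called lower, against 3.92% of all genes tested. They were SERPINH1, the collagen-specific chaperone HSP47, at 11.4 ± 5.67 CPM with zotatifin and 21.4 ± 2.89 CPM with vehicle (log2 change -1.02 ± 0.31, adjusted p = 0.0387), and TMEM38B, a channel of the endoplasmic reticulum (-0.60 ± 0.19, adjusted p = 0.0494). SERPINH1 passed the filter through the vehicle libraries alone, and DESeq2 called 0 of the 10 folding genes for which it gave an adjusted p. P4HB and PPIB, general folding enzymes that also act on procollagen, had log2 changes of 0.03 ± 0.11 and 0.01 ± 0.11. Of 8 export and processing genes 0 were called in footprints by edgeR or DESeq2, with 3 at an unadjusted p under 0.05, all lower. LOX, which crosslinks collagen outside the cell, was the 1 crosslinking gene tested there (-0.14 ± 0.27).

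Of 13 receptors, proteases and inhibitors of the matrix tested in footprints, 3 were called lower, again beside 3.92% of all genes. ITGB1, the integrin beta chain shared by the collagen, laminin and fibronectin receptors, was lower in footprints at 175 ± 21.3 CPM with zotatifin and 263 ± 64.5 CPM with vehicle (log2 change -0.58 ± 0.14, adjusted p = 0.0164), the 1 call among 8 receptors. MMP2, a gelatinase secreted mostly by fibroblasts, and TIMP2, which binds it, were the 2 of 5 proteases and inhibitors called lower (-1.81 ± 0.45 and -1.42 ± 0.43, adjusted p = 0.0142 and 0.0391). Both passed the footprint filter through the vehicle libraries alone, and DESeq2 called 1 of 7 receptors and 0 of 1 proteases and inhibitors with an adjusted p. AGRN, agrin, a proteoglycan that links laminin to cell receptors, was the 1 of 5 basement membrane and microfibril partners called, and it was higher: 43.3 ± 7.43 CPM with zotatifin and 26.7 ± 5.67 CPM with vehicle (log2 change 0.65 ± 0.20, adjusted p = 0.0427). Over all genes 3.22% were called higher, and DESeq2 called 0 of the 3 partners for which it gave an adjusted p. In RNA TIMP2 alone was called among the pathway lists (log2 change -1.45 ± 0.23, adjusted p = 0.0029). AGRN RNA had a log2 change of -0.20 ± 0.13 that was not called (adjusted p = 0.436), of opposite sign to its footprints. Its change of efficiency was 0.88 ± 0.24 and, unlike that of LAMA5, was not called (edgeR adjusted p = 0.052). DESeq2 called 1 of the 5 partners higher for efficiency. The replicates are labelled as biological, and the p-values measure the spread between these tumours.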

How the data were processed

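The authors deposited raw counts per transcript for both assays. Their deposited RNA comparison holds a signal (mean of normalised counts), a log2 change with its error, a Wald score and a p-value, plain and adjusted. The authors' deposited efficiency table gives an estimate on the natural log scale with an FDR. That scale was read from the values: regressed on both log2 changes over 1566 genes (mean counts above 200), it had weights of 0.665 for footprints and -0.666 for RNA, near the natural log of 2 (0.693). Per the submitters' processing notes, cutadapt 2.3, UMI-tools, Bowtie2 2.3.5 and DESeq2 were used on hg38. Per the labels' protocols, footprints were monosome fragments of 24 to 34 nt after RNase digestion. How mouse reads, strand and the counted region were handled is not given in the sources used here. The part of mouse stroma reads in these counts was not tested.

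Groups came from titles and column names. The treatment field contradicts the titles of 6 of the 12 samples, since it has zotatifin on all footprint libraries and none on all RNA libraries. Columns that carry a code number in place of a drug name were taken as zotatifin.

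Testing used edgeR 4.0.16 under R 4.3.3: filterByExpr with a minimum count of 10 and a minimum total of 15, TMM scaling, and the robust quasi-likelihood F test within each assay, with Benjamini-Hochberg adjusted p under 0.05 over all genes as a call. Translational efficiency was the interaction of assay and treatment over 12 libraries. The SE of a log2 change is the change divided by the root of F. Alternatives were DESeq2's size factors, no filter, DESeq2 1.42.0, the replicate block, the authors' tables and leaving out each tumour; the test was also run on simulated data. After removal of group means over 4889 genes, a footprint library correlated with the RNA library of its own number at 0.217 to 0.440 (6 pairs) and with other numbers of its treatment at -0.380 to 0.118. Numbers thus mark tumours, and a second efficiency model had the tumour as a block. Zotatifin and vehicle libraries of the same number correlated at -0.095 to 0.181. The genes, classes and lists were chosen with earlier results of these data known. Named were the genes called, in each class with no call the one with most footprints, tested genes, and in each list the calls and the most abundant genes. Some genes of the lists are not reported here.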

Additional observations from a re-analysis of the deposited data

Results flagged for a closer look

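LAMA5 is listed because its change differed between the assays: the log2 change in footprints minus that in RNA, zotatifin over vehicle, was 1.00 by the interaction test (edgeR adjusted p = 0.030). All 3 zotatifin tumours had a higher ratio of footprints to RNA than all 3 vehicle tumours. The change was 0.86 to 1.16 when a tumour was left out, and adjusted p was 0.041 to 0.145.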

How the results depend on the processing

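Counts of calls moved more than directions. Genes called in footprints numbered 681, 379 with DESeq2, 796 with the replicate block and 185 to 726 with a tumour left out. Genes called in RNA numbered 225, 624 with no filter, 527 with the replicate block (where numbers are shared by zotatifin and vehicle tumours without pairing them) and 11 to 396 with a tumour left out. Genes called for efficiency numbered 160, 819 with the replicate block, 2092 in the authors' deposited table and 56 to 132 with a tumour left out. Matrix genes called lower in footprints numbered 7, 14 with no filter, 8 with the replicate block and 4 to 13 with a tumour left out; in RNA they numbered 9, 9 with the replicate block and 3 to 10 with a tumour left out. For efficiency the authors' deposited table called 2 matrix genes higher and 2 lower, against 1 and 0, and 0 to 1 were higher with a tumour left out. No matrix gene was called higher in footprints or RNA under any alternative run. The footprint and RNA changes of the 11 genes called in either assay kept their sign under every alternative that gave a value; DESeq2 gave no adjusted p for COL5A1 and COL5A2 footprints, and COL5A1 was not tested in footprints without vehicle tumour 2 or 3. Efficiency changes that were not called turned sign with a tumour left out: COL12A1 ranged over -0.11 to 0.23, COL5A2 over -0.35 to 0.24, FBN1 over -0.43 to 0.26, SPARC over -0.15 to 0.22 and THBS1 over -0.36 to 0.17. The cause was not tested. THBS1 footprints were called with no filter and with the replicate block, COL5A2 footprints with no filter, and LRP1 RNA with no filter and DESeq2. Footprint libraries of zotatifin tumours were the shallowest, and 44 matrix genes had too few footprints to test. Levels per length were not run, since the tables give no lengths, and the authors' comparison of footprints alone was not used here.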
